A study of Homo sapiens with 24 samples.

Results

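Stress-responsive long noncoding RNAs were followed in HepG2 cells, an established human hepatoma line, exposed for 10 h to a proteasome inhibitor with or without drugs that act on the eIF2α branch of the unfolded protein response. The set was chosen by gene name, with earlier results of these data known, so its tests may not be independent of that choice. It held 8 RNAs: NEAT1, MALAT1, MIR22HG, MIR4435-1HG, H19, PVT1, TUG1 and LINC00152. Of these, 6 had a row among the 18915 genes of the count matrix and all 6 passed the filter on low counts with 12685 genes in total, while H19 and PVT1 were not analysed here. MIR4435-1HG entered the set because its nelfinavir by bortezomib interaction had been seen to be large, so its values in libraries of that contrast are given as a description, with no test.

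The 6 groups of 4 libraries each were measured by 3′ RNA sequencing: DMSO vehicle, ISRIB (50 nM), nelfinavir (20 µM), bortezomib (50 nM), bortezomib with nelfinavir, and bortezomib with ISRIB, the co-treatments at the same doses. Bortezomib blocks the proteasome, nelfinavir is an HIV protease inhibitor that raises phosphorylated eIF2α, and ISRIB makes cells insensitive to it. All groups came from 1 cell line, and the methods of the study call the 4 samples of a group biological replicates. Levels are CPM (counts scaled to library size) after TMM scaling, a correction for differences in library composition, and in bulk RNA fewer cells and less RNA per cell cannot be told apart.

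Long noncoding RNAs are transcripts that do not serve mainly as templates for protein. NEAT1 is the scaffold of paraspeckles, nuclear bodies that hold splicing factors and edited RNAs, and it is known to be induced by many stresses including proteasome inhibition. MALAT1 is an abundant RNA of nuclear speckles, where splicing factors are stored, and lies next to NEAT1 on chromosome 11. Libraries primed at poly(A) tails and counted per gene do not separate the transcripts of NEAT1 or MALAT1, and those without a tail may be missed. MIR22HG is the host transcript of miR-22, TUG1 is a widely expressed RNA first described in retinal development, and MIR4435-1HG (now named MIR4435-2HG) and LINC00152 (now named CYTOR) are near copies of each other on the 2 arms of chromosome 2, both studied for their high levels in tumours. The gene models used here type TUG1 as protein coding and the other measured members as lncRNA.

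The sequences that matter here are those of the duplicated pair, because a read from a shared stretch cannot be assigned to 1 of the 2 genes. In the GENCODE models on GRCh37 MIR4435-1HG lies at chr2:111763592-112280953 on the minus strand and LINC00152 at chr2:87754300-87936259 on the plus strand. The study counted reads on Ensembl models, so positions and shared stretches here describe models other than those behind the counts. Of the 19361 distinct 80-base stretches in LINC00152 transcripts, 8380 (43.3%) also occurred in MIR4435-1HG transcripts, and they made up 21.97% of the 38143 stretches of MIR4435-1HG. Within the last 500 bases of the transcripts, where 3′ reads fall, 40.5% of the LINC00152 stretches and 19.5% of the MIR4435-1HG stretches were shared. No such stretch was shared between any other 2 of the 6 RNAs. The duplication reaches the promoters. The windows from 250 bases before to 50 bases after the annotated starts (RefSeq, GRCh38.p14, chr2:111495112-111495411 on the minus strand and chr2:87455177-87455476 on the plus strand) share a run of 241 identical bases, offset by 59 bases, and are printed with matches to the AP-1 motif TGAGTCA, searched on both strands, in capitals.
MIR4435-1HG promoter: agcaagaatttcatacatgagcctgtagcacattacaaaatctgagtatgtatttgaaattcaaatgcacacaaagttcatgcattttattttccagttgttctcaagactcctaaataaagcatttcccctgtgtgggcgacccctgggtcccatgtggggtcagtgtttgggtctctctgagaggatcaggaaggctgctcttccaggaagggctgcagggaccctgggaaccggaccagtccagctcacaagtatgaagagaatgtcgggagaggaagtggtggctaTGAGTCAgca
LINC00152 promoter: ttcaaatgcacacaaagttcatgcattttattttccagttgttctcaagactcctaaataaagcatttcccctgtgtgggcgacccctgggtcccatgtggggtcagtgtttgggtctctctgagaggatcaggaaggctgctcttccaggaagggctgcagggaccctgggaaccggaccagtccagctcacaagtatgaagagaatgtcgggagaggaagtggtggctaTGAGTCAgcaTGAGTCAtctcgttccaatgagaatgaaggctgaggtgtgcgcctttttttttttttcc

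The window of MIR4435-1HG held 1 match, in the shared run, and it is the same stretch as the first of the 2 matches of LINC00152. The second lies beyond the end of the MIR4435-1HG window, so these counts show no difference between the promoters. Of all 35116 promoter windows of this length, 4.95% held at least 1 match. MIR22HG had the largest increase of the 6 with bortezomib over DMSO, so its window (chr17:1716161-1716460, minus strand, GRCh38.p14) is shown with its 2 CCAAT motifs, also found on both strands, in capitals. That motif was present in 34.6% of windows.
MIR22HG promoter: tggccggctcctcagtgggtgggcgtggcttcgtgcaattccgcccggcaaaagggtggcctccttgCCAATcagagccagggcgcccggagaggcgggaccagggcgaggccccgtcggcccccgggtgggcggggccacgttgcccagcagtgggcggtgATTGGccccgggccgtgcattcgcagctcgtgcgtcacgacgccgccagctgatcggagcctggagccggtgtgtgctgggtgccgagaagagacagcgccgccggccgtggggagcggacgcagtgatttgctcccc

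No window of the 5 RNAs with an entry (MALAT1 had 2 windows) matched the full CRE motif TGACGTCA (1.85% of windows), the C/EBP-ATF motif TGATGNAAT (0.991%) or the heat shock motif GAANNTTC (6.77%). The window of TUG1 held 1 E-box CACGTG (7.26%) and 2 CCAAT motifs, that of LINC00152 held 1 CCAAT motif, and 1 window of MALAT1 held 2 matches to TGACNNNGC (13.3%). These are matches of letters and not sites of binding.

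The microRNAs carried by the host transcripts were not measured by these libraries. Their mature sequences (RefSeq) are given with the seed, bases 2 to 8, in capitals. The 2 arms of miR-22 come from MIR22HG, and no 2 of the 3 share a seed. The same mature miR-4435 is listed at 2 loci of chromosome 2, 1 of them inside MIR4435-1HG.
hsa-miR-22-3p: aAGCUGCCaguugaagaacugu
hsa-miR-22-5p: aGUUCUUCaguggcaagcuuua
hsa-miR-4435: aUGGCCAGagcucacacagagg

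Library totals ran from 5154533 to 6943164 counts, and mitochondrially encoded genes took 21.5% ± 1.32 of them in the vehicle group, 33.8% ± 1.20 after bortezomib alone, 27.2% ± 2.26 where nelfinavir was added and 36.1% ± 3.13 where ISRIB was added (SD, n = 4 each). The part of this shift in the changes below was not tested. With scaling by library totals alone the median log2 fold change of all genes moved from 0.00 to -0.49 in the bortezomib comparison. With the mitochondrially encoded genes left out and TMM scaling kept, that median was -0.04. All 10 hepatoma markers (ALB, AFP, APOA1 and others) were counted in every library. Scaled by library totals alone, they summed to 14310 to 17540 CPM without bortezomib and 5555 to 9304 CPM with it. After TMM scaling their median log2 fold change with bortezomib over DMSO was -0.28, against 0.00 over all genes. Of 4 fibroblast and 4 endothelial markers, the 1 of each that was listed (COL1A1 and KDR) had at most 5 counts in a library, and of 4 leukocyte markers LYZ had 352 to 3307 counts, CD68 had 4 to 40, and PTPRC and CD3E had no row.

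**Figure D1:**
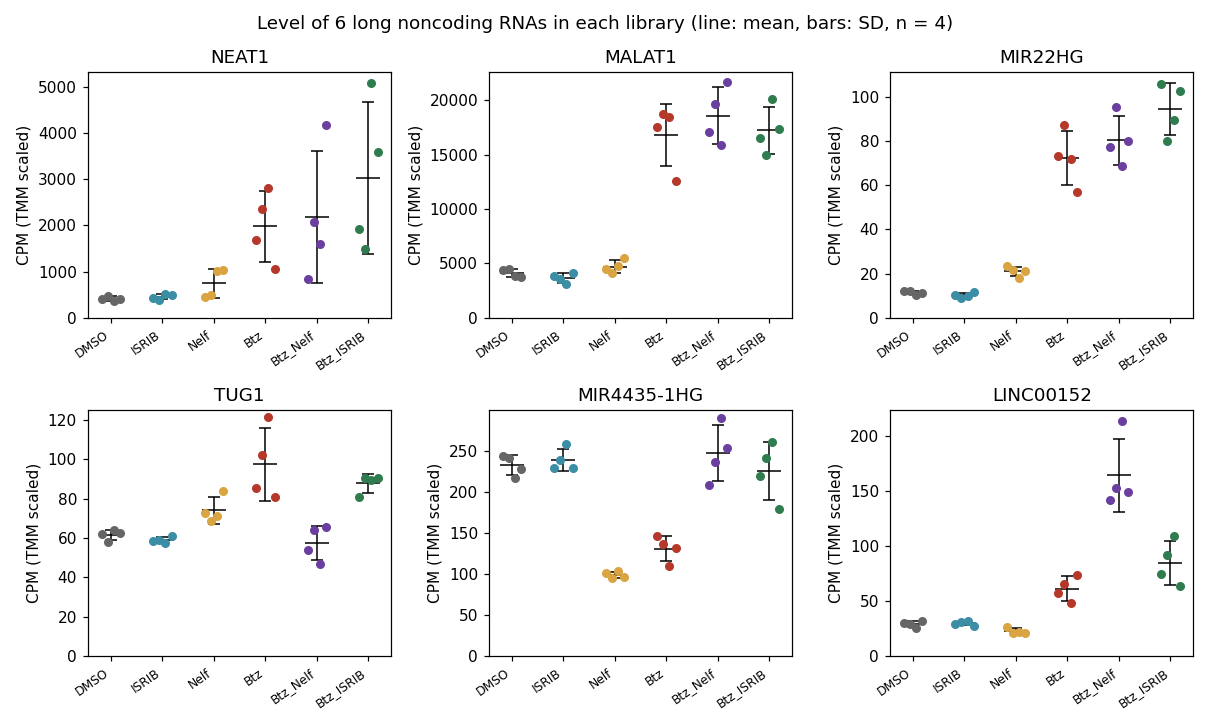
Level of each RNA in CPM (vertical axis, linear, from 0) in the 24 libraries, by group on the horizontal axis, with 1 point per library and the mean and SD of 4 in black. NEAT1, MALAT1, MIR22HG and LINC00152 stand higher in every bortezomib group than in DMSO, while MIR4435-1HG is low with nelfinavir (98.6 CPM) or bortezomib (131 CPM) alone and TUG1 is low in the nelfinavir co-treatment (57.4 CPM).

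Bortezomib raised 5 of the 5 tested RNAs over DMSO. The fold changes were 6.32 for MIR22HG, 4.79 for NEAT1, 4.10 for MALAT1, 2.10 for LINC00152 and 1.58 for TUG1. For comparison, 53.4% of all 12685 genes tested were called in this comparison, 27.6% as higher, at an adjusted p under 0.05 (edgeR's quasi-likelihood F test, Benjamini-Hochberg over all genes, the threshold used throughout). MIR4435-1HG, not tested here, stood lower by 1.78-fold.

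The other lncRNAs in the matrix had few calls of an increase. Among 1015 other annotated lncRNAs that passed the filter, 93 (9.16%) were called higher with bortezomib, against 27.6% of all genes, and 246 (24.2%) lower, close to the 25.8% of all genes, with a median log2 fold change of -0.40 against 0.00 over all genes tested. In the co-treatment with nelfinavir, against nelfinavir alone, 53 (5.22%, against 28.7% of all genes) were higher and 356 (35.1%, against 28.4%) lower, with a median of -0.94 against -0.05. Of 26 other well-known lncRNAs, 11 could be tested and 4 rose and 4 fell with bortezomib. LINC-PINT, a target of p53, rose by 2.17 ± 0.44 (log2 fold change ± SE, adjusted p = 1.0e-04, edgeR) and LINC00657 (NORAD), which binds PUMILIO proteins, by 1.00 ± 0.08 (adjusted p = 8.9e-13, edgeR). LINC00261, a liver and endoderm lncRNA, fell by 3.03 on the log2 scale (SE 0.16, adjusted p = 8.3e-17, edgeR). Of 8 other microRNA host genes named in the matrix, MIR4458HG alone passed the filter, and it fell by 0.84 on the log2 scale (SE 0.24, adjusted p = 0.0039, edgeR).

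**Figure D2:**
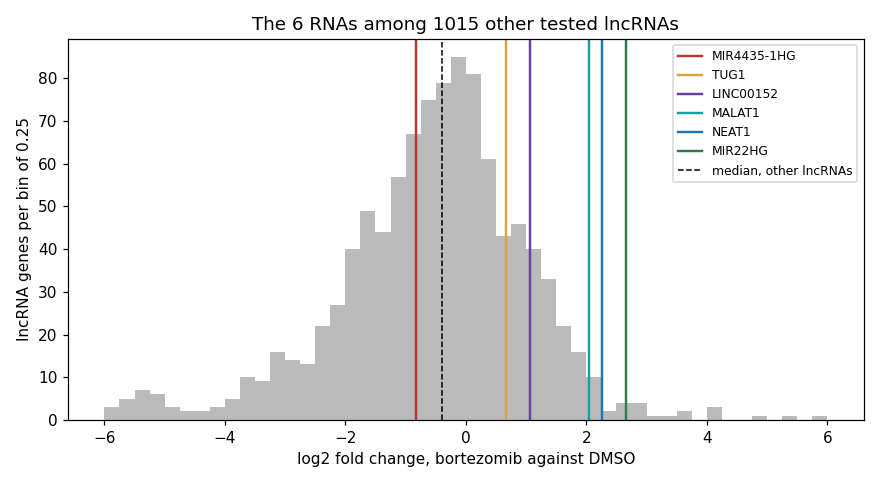
Log2 fold change between bortezomib and DMSO (horizontal axis) for 1015 other tested lncRNAs, counted in bins of 0.25 (grey bars, vertical axis), with the 6 RNAs as coloured lines and the median of the others dashed. MIR22HG (2.66), NEAT1 (2.26) and MALAT1 (2.04) lie in the right tail, LINC00152 (1.07) and TUG1 (0.66) on the right shoulder, and MIR4435-1HG (-0.83) left of the median of -0.40.

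NEAT1, at chr11:65190245-65213011 on the plus strand (GRCh37), had 404, 480, 363 and 403 CPM in DMSO. It had 436, 382, 504 and 491 CPM with ISRIB and 451, 484, 1003 and 1040 CPM with nelfinavir, where replicates 3 and 4 stood apart from replicates 1 and 2. With bortezomib it had 1690, 2345, 2818 and 1053 CPM. The libraries of bortezomib with nelfinavir held 832, 2081, 1604 and 4172 CPM, and those of bortezomib with ISRIB held 1918, 1494, 5090 and 3581 CPM. The 3 bortezomib groups overlapped each other, and the lowest library of the nelfinavir co-treatment lay below the 2 highest nelfinavir libraries. Bortezomib raised NEAT1 by 2.26 ± 0.35 over DMSO (log2 fold change ± SE, adjusted p = 1.9e-06, edgeR), by 2.74 ± 0.36 in the presence of ISRIB (adjusted p = 8.3e-08) and by 1.55 ± 0.34 in the presence of nelfinavir (adjusted p = 2.7e-04), and these 3 comparisons share no libraries. The last value was 1.01 without replicate 4 of the co-treatment and 1.82 without replicate 1, and both stayed called.

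NEAT1 was by far the least reproducible of the 6. Its pooled SD within groups was 0.64 on the log2 scale, the largest among 153 genes of similar level (NEAT1 included), whose median was 0.12. The other 5 had SDs of 0.15 to 0.23, and MALAT1, with 0.20, stood among 9 genes of similar level with a median of 0.17, of which 2 were more variable. The change of NEAT1 with nelfinavir alone, 0.85 ± 0.34, did not pass the test (adjusted p = 0.078, edgeR), but it did without replicate 1 (1.03, adjusted p = 0.043) or replicate 2 (1.01, adjusted p = 0.045) of nelfinavir, the 2 low libraries.

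MALAT1, at chr11:65265111-65275544 on the plus strand, 52100 bases beyond the end of NEAT1, had 4345, 4512, 3799 and 3740 CPM in DMSO. It had 3816, 3524, 3060 and 4120 CPM with ISRIB and 4483, 4070, 4761 and 5500 CPM with nelfinavir. With bortezomib it reached 17540, 18710, 18430 and 12570 CPM, with bortezomib and nelfinavir 17100, 19670, 15920 and 21690 CPM, and with bortezomib and ISRIB 16490, 14950, 20170 and 17340 CPM. Every library with bortezomib lay above every library without it. The increase was 2.04 ± 0.12 over DMSO (log2 fold change ± SE, adjusted p = 1.6e-15, edgeR), 2.25 ± 0.12 over ISRIB (adjusted p = 1.6e-16) and 1.98 ± 0.12 over nelfinavir (adjusted p = 3.3e-15). Adding nelfinavir (0.15 ± 0.12, adjusted p = 0.38) or ISRIB (0.04 ± 0.12, adjusted p = 0.89) to bortezomib gave no called change.

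The ratio of the 2 neighbours within a library does not depend on scaling. There were 9.28 to 10.8 MALAT1 counts per NEAT1 count in DMSO, 6.54 to 11.9 with bortezomib, 5.198 to 20.6 in its combination with nelfinavir and 3.96 to 10.0 in that with ISRIB. The mean log2 ratio of NEAT1 to MALAT1 was -3.32 ± 0.11 in DMSO and -3.17 ± 0.39 in bortezomib (SD, n = 4 each), a difference of 0.15 (two-sided exact permutation test, p = 0.46). Over 7 comparisons the smallest p was 0.029, for ISRIB against DMSO (difference 0.31), which is the smallest that 4 against 4 can give and became 0.20 after Benjamini-Hochberg adjustment. A comparison that alone reached the smallest p could thus not pass after adjustment, so these tests could not call a shift in a single comparison. None of the 7 was called, which does not show that the ratio stayed the same. The SD of the log2 ratio reached 0.81 in the nelfinavir combination. Deviations of the 2 RNAs from their group means had a Pearson r of 0.74 over the 24 libraries, a value ranked 68 of 12684 among the genes correlated with NEAT1 (a description: the points share library and depth).

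**Figure D3:**
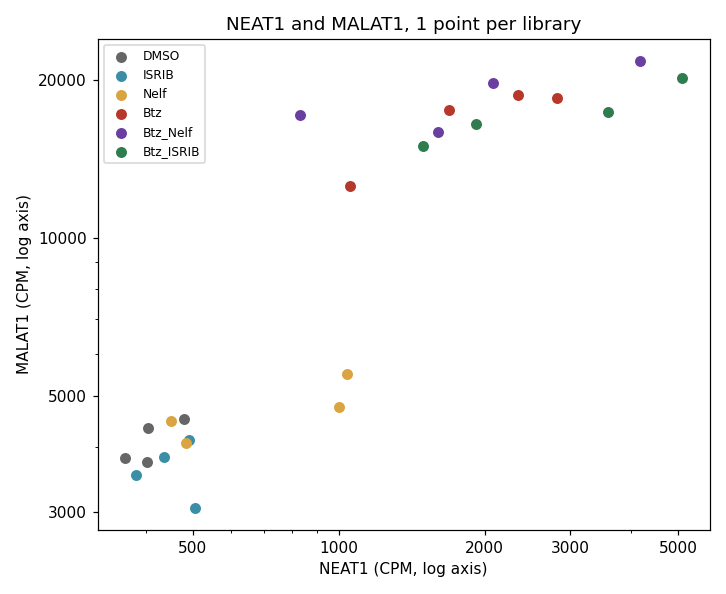
NEAT1 (horizontal) and MALAT1 (vertical) in CPM, both on log axes, 1 point per library and 1 colour per group. The 12 libraries with bortezomib lie at or above 12570 CPM of MALAT1 and spread from 832 to 5090 CPM along NEAT1, and the 12 without it lie at or below 5500 CPM of MALAT1.

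FRMD8, the nearest tested gene on the low side of NEAT1, was not called with bortezomib (0.22 ± 0.15, adjusted p = 0.23, edgeR). Of 35 genes listed for paraspeckle proteins, 34 rows were tested (SRSF10 has 2), and 8 (23.5%) rose and 9 (26.5%) fell with bortezomib, close to the 27.6% and 25.8% of all genes, with a median of 0.08 against 0.00. The core proteins SFPQ (0.17 ± 0.07, adjusted p = 0.047) and PSPC1 (-0.45 ± 0.13, adjusted p = 0.0040) went opposite ways, and NONO changed by 0.07 ± 0.08 (adjusted p = 0.43, all edgeR). Of 26 nuclear speckle and SR protein genes, 10 (38.5%) rose and 6 (23.1%) fell with bortezomib, with a median of 0.13. The kinase gene CLK1, which phosphorylates SR proteins, rose most (1.74 ± 0.11, adjusted p = 1.4e-14, edgeR).

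MIR22HG, at chr17:1614741-1620468 on the minus strand (GRCh37), had the largest increase of the 6 with bortezomib over DMSO and over ISRIB, whereas in the presence of nelfinavir LINC00152 and MALAT1 had larger ones. It had 12.1, 12.1, 10.4 and 11.2 CPM in DMSO, from 74 to 104 counts. It had 10.2, 9.05, 9.74 and 11.6 CPM with ISRIB and 23.3, 21.4, 18.03 and 21.02 CPM with nelfinavir. The values rose to 73.1, 87.2, 71.8 and 57.0 CPM with bortezomib, 77.3, 95.3, 68.5 and 79.9 CPM with bortezomib and nelfinavir, and 106, 80.2, 89.6 and 103 CPM with bortezomib and ISRIB. Nelfinavir libraries thus lay above all vehicle libraries and below all bortezomib libraries. The change was 2.66 ± 0.14 with bortezomib (log2 fold change ± SE, adjusted p = 2.9e-17, edgeR), 3.22 ± 0.14 with bortezomib in the presence of ISRIB (adjusted p = 2.8e-19) and 1.94 ± 0.13 in the presence of nelfinavir (adjusted p = 2.2e-14). These values ranked 169, 114 and 313 from the top of 12685 genes, in that order.

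MIR22HG was also the sole member of the 5 tested to be called with nelfinavir alone (0.87 ± 0.14, adjusted p = 1.7e-05, edgeR), a comparison in which 19.2% of all genes were called, 10.4% as higher and 8.84% as lower. WDR81, which overlaps its model, changed by -0.07 ± 0.19 with bortezomib (adjusted p = 0.80, edgeR). The adjacent SERPINF2 (-0.11 ± 0.11, adjusted p = 0.42) and PRPF8 (0.26 ± 0.08, adjusted p = 0.0093, both edgeR) flank it. Among the genes whose levels followed MIR22HG most closely over the 24 libraries were GDF15, a stress-induced cytokine (r = 0.987), and TMEM57 (r = 0.983), on log2 CPM and given without a test. Of 14 p53 target genes on a list kept for comparison, 7 rose and 3 fell with bortezomib, where 27.6% and 25.8% of all genes did, with a median of 0.56.

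MIR4435-1HG had 243, 242, 217 and 228 CPM in DMSO and 229, 239, 258 and 229 CPM with ISRIB. Nelfinavir libraries held 101, 94.9, 103 and 95.6 CPM, and bortezomib libraries held 147, 136, 109 and 131 CPM. Both single drugs thus went with levels below every vehicle library. In the combination the level stood back near vehicle, with 209, 236, 290 and 253 CPM, and with bortezomib and ISRIB it was 219, 241, 261 and 180 CPM. This return depended on scaling, since with library totals alone the combination held 174.5 to 238.9 CPM, below every vehicle library (260.5 to 301.4 CPM) and above every library of nelfinavir (113.4 to 121.5 CPM) or bortezomib (92.65 to 127.5 CPM). The differences, which chose this gene and are not tested, were -0.83 ± 0.10 for bortezomib against DMSO, -1.24 ± 0.10 for nelfinavir against DMSO, 0.92 ± 0.10 for the combination against bortezomib and 1.33 ± 0.10 for the combination against nelfinavir (log2 fold change ± SE). With library totals alone the first became -1.326 and the last 0.817. The interaction, the effect of nelfinavir with bortezomib minus that without it, was 2.15 ± 0.15 and ranked 188 from the top of 12685 genes, of which 19.7% were called in that contrast.

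ISRIB libraries took no part in the choice of MIR4435-1HG. In them, bortezomib changed it by -0.08 ± 0.10 (adjusted p = 0.51, edgeR), with overlapping libraries. That value depended on scaling: with library totals alone it was -0.62 (adjusted p = 8.6e-06, edgeR), past the threshold. Against ISRIB, 5 of the 6 tested RNAs rose with bortezomib, where 54.7% of all genes were called and 29.1% were called higher.

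LINC00152 had 30.3, 29.0, 25.2 and 32.0 CPM in DMSO, 29.0, 30.8, 31.9 and 27.5 CPM with ISRIB and 26.4, 21.03, 21.8 and 21.02 CPM with nelfinavir. With bortezomib it had 57.3, 65.9, 48.1 and 73.9 CPM and with bortezomib and ISRIB 74.8, 91.9, 109 and 63.4 CPM. The combination with nelfinavir gave the highest values, 142, 153, 214 and 149 CPM, above every other library. The rise was 1.07 ± 0.15 with bortezomib (log2 fold change ± SE, adjusted p = 2.6e-07, edgeR), 1.51 ± 0.15 with ISRIB present (adjusted p = 2.1e-10) and 2.87 ± 0.15 with nelfinavir present (adjusted p = 5.9e-17). Adding nelfinavir to bortezomib raised it by 1.42 ± 0.14 (adjusted p = 3.4e-09), whereas nelfinavir alone gave -0.37 ± 0.15 (adjusted p = 0.093). Except for the rise with ISRIB present, these comparisons use the libraries that chose MIR4435-1HG, its near copy. Their tests of LINC00152 are thus not independent of that choice. The interaction of LINC00152 was 1.79 ± 0.21, ranked 304 from the top and, like all interactions of nelfinavir with bortezomib here, not tested.

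The near copies had fold changes of opposite sign with bortezomib alone, and both stood higher in the nelfinavir combination than with either drug alone. Counts of MIR4435-1HG per count of LINC00152 were 7.12 to 8.61 in DMSO, 7.75 to 8.32 with ISRIB, 3.81 to 4.73 with nelfinavir, 1.78 to 2.56 with bortezomib, 1.35 to 1.70 in the nelfinavir combination and 2.39 to 2.93 in that with ISRIB. Within groups the 2 moved together, with an r of 0.80 of the deviations over 24 libraries, and both deviations ran against the mitochondrial share (r = -0.59 for MIR4435-1HG and -0.66 for LINC00152). Reads of the shared stretches may have been divided between them or dropped in counting, so the separate values are uncertain. Summed into 1 feature, the pair had 261 ± 14.2 CPM in DMSO, 121 ± 5.63 with nelfinavir, 192 ± 23.1 with bortezomib and 411 ± 65.5 in the combination (SD, n = 4 each). The summed change with bortezomib was -0.44 ± 0.11, where LINC00152 counted alone rose, and the summed interaction was 2.21 ± 0.15. MIR4435-1HG made up most of the sum in DMSO (232 of 261 CPM), so the sum is no separate measure of LINC00152.

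**Figure D4:**
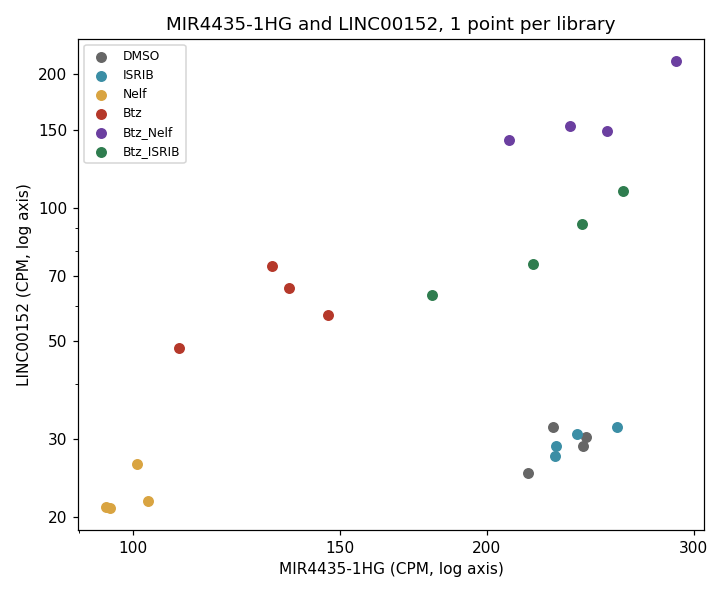
MIR4435-1HG (horizontal) and LINC00152 (vertical) in CPM, both on log axes, 1 point per library and 1 colour per group. Vehicle and ISRIB libraries lie at the lower right, nelfinavir at the lower left, bortezomib in the middle left and the nelfinavir combination at the upper right, with LINC00152 from 142 to 214 CPM.

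Neighbours of the pair were read for the same contrasts. BCL2L11, which encodes the pro-apoptotic protein BIM and overlaps the GENCODE model of MIR4435-1HG, had 14.03 ± 1.17 CPM in DMSO, 13.9 ± 3.52 with bortezomib and 39.0 ± 8.75 in the nelfinavir combination (SD, n = 4 each). It rose by 1.48 ± 0.17 when nelfinavir was added to bortezomib (adjusted p = 4.3e-08, edgeR) and changed by -0.29 ± 0.17 with nelfinavir alone (adjusted p = 0.26, edgeR). Whether the counting used strand is not stated, and without strand the reads of overlapping genes cannot be told apart. BUB1, the next tested gene on the low side, was lower in both, by -0.66 ± 0.16 (adjusted p = 0.0020) and -0.76 ± 0.14 (adjusted p = 1.1e-04), and ANAPC1, on the high side, by -0.80 ± 0.21 in the first (adjusted p = 0.0042, all edgeR). KRCC1, on the high side of LINC00152, fell by 1.151 on the log2 scale when nelfinavir was added to bortezomib (SE 0.21, adjusted p = 1.0e-04, edgeR).

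The genes most like LINC00152 over the 24 libraries were PEA15 (r = 0.982), the mitochondrial chaperone gene HSPD1 (r = 0.973) and ADIPOR2 (r = 0.970), and those most like MIR4435-1HG were the DNA repair gene UNG (r = 0.925), PPIG (r = 0.891) and FAM46A (r = 0.881). Chaperone genes driven by heat shock factor 1 were listed for comparison, and 10 of 10 rose with bortezomib, where 27.6% of all genes did, with a median of 2.59. When nelfinavir was added to bortezomib 9 of the 10 rose and 1 fell (median 0.90), where 15.6% and 13.4% of all genes did, and with nelfinavir alone 9 fell (median -0.45), where 8.84% of all genes did. For NEAT1 the closest genes were MLXIP (r = 0.953), REC8 (r = 0.943) and CCNL2 (r = 0.937), and for MALAT1 they were SAT1 (r = 0.985), GLA (r = 0.983) and UBR4 (r = 0.983).

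TUG1, at chr22:31365231-31375381 on the plus strand (GRCh37), had the smallest of the 5 tested increases with bortezomib over DMSO and went down when nelfinavir was added. It had 62.1, 58.0, 63.9 and 62.5 CPM in DMSO, 58.6, 58.9, 57.5 and 61.0 CPM with ISRIB and 72.6, 68.4, 71.0 and 83.8 CPM with nelfinavir. It had 85.5, 102, 121 and 80.6 CPM with bortezomib, 80.6, 90.6, 89.4 and 90.3 CPM with bortezomib and ISRIB, but 53.7, 63.8, 46.7 and 65.3 CPM with bortezomib and nelfinavir, below every library of either drug alone. Bortezomib raised it by 0.66 ± 0.11 over DMSO (log2 fold change ± SE, adjusted p = 6.5e-06, edgeR) and by 0.57 ± 0.11 over ISRIB (adjusted p = 5.6e-05). In the presence of nelfinavir it fell with bortezomib by 0.37 on the log2 scale (SE 0.11, adjusted p = 0.0061), and adding nelfinavir to bortezomib lowered it by -0.76 ± 0.11 (adjusted p = 4.2e-06). With library totals alone both increases lost their calls, at 0.16 (adjusted p = 0.22) over DMSO and 0.03 (adjusted p = 0.83) over ISRIB, while both decreases stayed called. MORC2, which starts 471 bases from TUG1, changed by 0.14 ± 0.17 with bortezomib (adjusted p = 0.50) and fell by 0.52 on the log2 scale on adding nelfinavir (SE 0.17, adjusted p = 0.022, all edgeR). SMTN, the nearest tested gene on the other side, rose by 0.81 ± 0.16 with bortezomib (adjusted p = 4.9e-05), by 1.61 ± 0.16 with bortezomib in the presence of nelfinavir (adjusted p = 1.4e-10) and by 0.44 ± 0.15 on adding nelfinavir (adjusted p = 0.029, all edgeR). The closest genes over the 24 libraries were ERICH1 (r = 0.916), TP73-AS1 (r = 0.882) and BTBD19 (r = 0.878).

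The response to nelfinavir on top of bortezomib differed between the RNAs. Of the 5 tested RNAs 2 were called when it was added to bortezomib, LINC00152 higher and TUG1 lower, in a comparison where 28.9% of all genes were called, 15.6% as higher and 13.4% as lower. The call of LINC00152 is not independent of the choice of MIR4435-1HG, its near copy. Against nelfinavir alone, the combination had 4 RNAs higher and TUG1 lower, with 57.1% of all genes called, 28.7% as higher and 28.4% as lower. The untested interactions were 2.15 for MIR4435-1HG, 1.79 for LINC00152, -0.05 for MALAT1, -0.72 for NEAT1, -0.72 for MIR22HG and -1.03 for TUG1, on the log2 scale. That of NEAT1 was -1.2 without replicate 4 of the combination, -0.39 without its replicate 1 and -0.45 without replicate 3 of bortezomib.

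**Figure D5:**
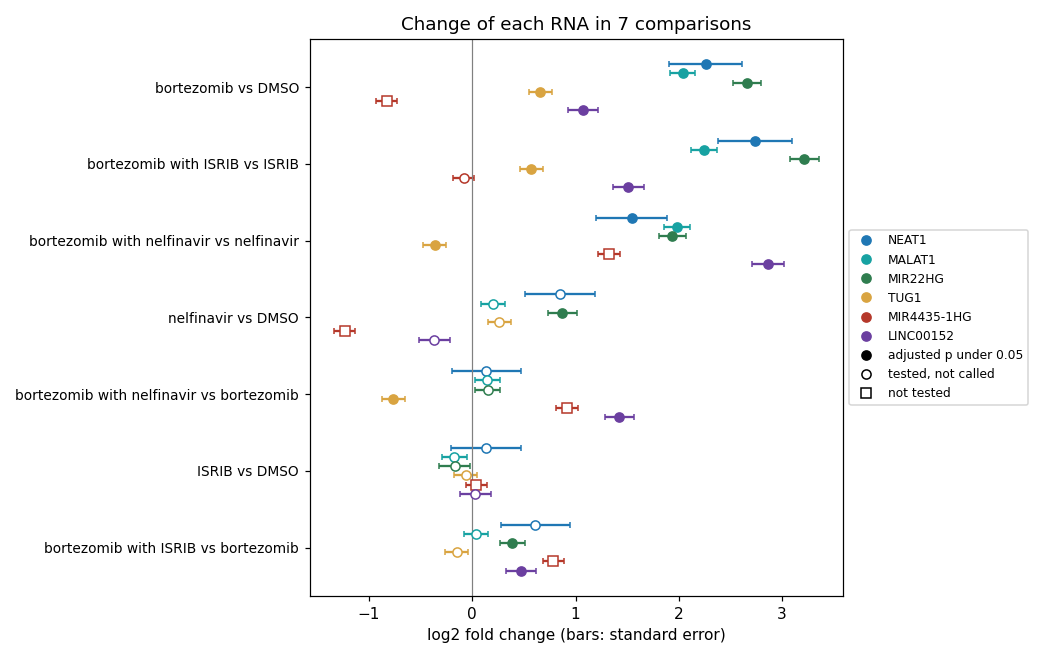
Log2 fold change with its standard error (horizontal axis) for each RNA in 7 comparisons (rows), filled where the adjusted p was under 0.05, open circles where tested and not called, and open squares where not tested. NEAT1, MALAT1, MIR22HG and LINC00152 lie right of 0 in the upper 3 rows, and TUG1 lies left of 0 in both comparisons with the nelfinavir combination (-0.37 and -0.76).

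ISRIB alone called 0 of the 5 tested RNAs and 0 of all 12685 genes (0%) with edgeR, with 702 genes at an unadjusted p under 0.05 and 21 genes called by DESeq2. Changes ran from -0.18 (MALAT1) to 0.14 (NEAT1) on the log2 scale. Added to bortezomib, ISRIB raised MIR22HG by 0.39 ± 0.12 (adjusted p = 0.034, edgeR) and LINC00152 by 0.47 ± 0.14 (adjusted p = 0.028, edgeR), 2 of the 5 tested, where 12.2% of all genes were called, 6.89% as higher and 5.34% as lower. In both the libraries of the 2 groups overlapped. Both calls were lost with library totals alone and with only the 2 groups in the fit, and at least 1 was lost on leaving out each of 7 of the 8 libraries in turn. MIR4435-1HG, not tested, stood higher by 0.79 ± 0.10, with no overlap, and NEAT1 differed by 0.61 ± 0.34 (adjusted p = 0.25, edgeR). The NEAT1 value was 0.23 without replicate 3 of the ISRIB co-treatment, 0.40 without replicate 4 of bortezomib and at most 0.84 without any other single library, never called, but it passed the test with no filter on low counts (0.61, adjusted p = 6.0e-09, edgeR). The test of whether ISRIB altered the response to bortezomib called 0 of the 5 RNAs by edgeR, against 4.82% of all genes (2.92% higher and 1.89% lower), with MIR22HG closest (0.56 ± 0.19, adjusted p = 0.094), and 2319 of all genes had an unadjusted p under 0.05 in that contrast.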

How the data were processed

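The authors prepared 3′ mRNA libraries (QuantSeq FWD, primed at poly(A) tails), sequenced single-end reads, trimmed them with cutadapt 2.8 (per the labels), aligned them with STAR to GRCh37 (hg19) and deposited unnormalized read counts per gene. The methods of the study name the nf-core RNA-Seq pipeline and Ensembl gene models on GRCh37 of protein coding, lincRNA and antisense type. No source used here names the counting program, its strand setting or molecular identifiers, so errors cover the spread of libraries only. A 3′ count does not compare levels between genes.

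Genes were filtered with filterByExpr (minimum count 5, total 25), given TMM factors and tested by the quasi-likelihood method of edgeR 4.0.16 (R 4.3.3), all 24 libraries in 1 model of 6 groups. DESeq2 1.42.0 was an alternative. Log2 CPM used a prior count of 2. The ratio of NEAT1 to MALAT1 was compared by two-sided exact permutation tests (Python 3.11.15), adjusted over 7 comparisons. The tests were checked on simulated data. Positions and transcripts come from GENCODE 44 models on GRCh37, not the Ensembl models behind the counts, and 18304 of 18915 genes have a GENCODE model. Promoters and microRNAs come from RefSeq on GRCh38.p14. Other alternatives were other scalings and filters, mitochondrial genes left out, only the groups compared, a replicate block, the summed pair, and leaving out each library.

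The members and lists were chosen with earlier results of these data known. The plan named 7 members beside MIR4435-1HG for testing, of which 5 were measured. Genes named are the members, examples from the lists, the nearest tested genes on each side and, for each member, the 3 genes with the highest r of log2 CPM over the libraries. Some genes that this rule would name are not reported here.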

Additional observations from a re-analysis of the deposited data

Results flagged for a closer look

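Among 42 groups of 4 libraries checked for a value far from the others (6 RNAs and the NEAT1 to MALAT1 ratio in 6 groups), 3 had a library whose gap to the rest exceeded Dixon's 95% critical value, and chance alone flags about 1 in 20. They were LINC00152 in bortezomib with nelfinavir (214 CPM in replicate 3, against 142 to 153 in the others), LINC00152 in nelfinavir (26.4 CPM in replicate 1, against 21.02 to 21.8) and TUG1 in bortezomib with ISRIB (80.6 CPM in replicate 1, against 89.4 to 90.6). Without replicate 3, adding nelfinavir to bortezomib still raised LINC00152, by 1.29 on the log2 scale (edgeR; the adjusted p over all left-out libraries was at most 7.7e-08).

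For 2 RNAs the effect of a drug had opposite signs with and without the other drug, with every library of a group on the same side. TUG1 changed with nelfinavir by 0.26 without bortezomib and by -0.76 with it, and with bortezomib by 0.66 without nelfinavir and by -0.37 with it. The change of 0.26 was not called (adjusted p = 0.096, edgeR), and that of 0.66 lost its call with library totals alone. MIR4435-1HG changed with nelfinavir by -1.24 and then by 0.92, and with bortezomib by -0.83 and then by 1.33 (all log2 fold changes). The differences between an effect with and without the other drug were not tested, and MIR4435-1HG was chosen for its own.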

How the results depend on the processing

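Bortezomib's increases of NEAT1, MALAT1, MIR22HG and LINC00152 over DMSO, ISRIB and nelfinavir kept their calls under every scaling, filter, test and left-out library tried. The sum of LINC00152 and MIR4435-1HG, with no test, was -0.44 over DMSO, opposite in sign to LINC00152, 0.21 over ISRIB and 1.76 over nelfinavir. MIR4435-1HG made up most of that sum in DMSO (232 of 261 CPM). The 5 calls over DMSO became 4 with library totals alone, where TUG1 was lost. With ISRIB added to bortezomib the count of calls fell from 2 to 0 with library totals alone and with only the groups compared, and was 0 to 2 over left-out libraries, with 0 without replicate 1 or 3 of bortezomib. With nelfinavir alone it rose from 1 to 3 with no filter and to 4 with only the groups compared, and was 1 to 2 over left-out libraries, with 2 without replicate 1 or 2 of nelfinavir. For ISRIB's effect on the response to bortezomib it rose from 0 to 1 with no filter (NEAT1, 0.47, adjusted p = 0.013) and was 0 to 1 over left-out libraries, with 1 (MIR22HG, 0.66, adjusted p = 0.039) without replicate 2 of bortezomib. The cause was not tested. The interaction of MIR4435-1HG ranged from 2.10 to 2.29 over left-out libraries and from 2.14 to 2.21 over the other alternatives.

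Small uncalled changes reversed. MALAT1 on adding ISRIB to bortezomib was -0.025 with library totals alone and ran from -0.082 (without replicate 4 of bortezomib) to 0.098 over left-out libraries. LINC00152 with ISRIB alone ran from -0.031 (without replicate 3 of DMSO) to 0.077, and TUG1 in ISRIB's interaction from -0.17 to 0.030 (without replicate 3 of bortezomib). NEAT1 on adding nelfinavir to bortezomib ran from -0.36 (without replicate 4 of the combination) to 0.45. The log2 NEAT1 to MALAT1 difference for bortezomib against DMSO ran from -0.00083 to 0.29 over left-out libraries, and that for the combination with nelfinavir against bortezomib from -0.47 to 0.19.

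Replicate numbers were not taken to pair the libraries, since not every same-numbered pair correlated above 0.1 in its deviations. Still, 10 of 60 did, a larger share than the 7 of 180 others, and 14 of 24 libraries correlated best with their own number, a hint from the data of some shared structure. With a replicate block, the interaction of MIR4435-1HG was 2.15 and the counts of calls were the same (5, 5, 5, 1, 2, 0, 2 and 0). With no filter NEAT1 had an SE of 0.093 in place of 0.34 for nelfinavir against DMSO and was called there (0.84, adjusted p = 1.8e-17). Depth limits MIR22HG most, with 69 to 104 counts in DMSO and ISRIB libraries.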

Other observations

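Within groups, the libraries with high NEAT1 also had high levels of NKTR (r = 0.928 of the deviations over 24 libraries), CLDN15 (r = 0.899), SLC22A18 (r = 0.886), HNRNPU-AS1 (r = 0.885) and ENDOV (r = 0.872), genes chosen after their values were seen and given with no test. For LINC00152 the closest in the same measure were RPS4X (r = 0.882), CDV3 (r = 0.872) and ATF4 (r = 0.855), the transcription factor of the integrated stress response, with MIR4435-1HG ranked 18 of 12684. For MIR4435-1HG the closest was PKP3 (r = 0.965), a desmosome gene. All these points share a library and its depth.

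Among the lncRNAs listed for comparison, FTX, a lncRNA of the X inactivation centre, rose with bortezomib by 1.75 ± 0.39 (adjusted p = 3.0e-04, edgeR) and fell by 1.36 on the log2 scale when nelfinavir was added (SE 0.40, adjusted p = 0.010, edgeR). LINC00261 went the other way on adding nelfinavir, by 1.43 ± 0.18 (adjusted p = 1.6e-07, edgeR). HCG18 fell by 0.76 on the log2 scale in the same comparison (SE 0.16, adjusted p = 7.1e-04, edgeR).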
